A study of Mus musculus with 4 samples.

Results

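The genes described here encode the nucleolar machinery that cuts, modifies and folds ribosomal RNA. They were taken by name from the array's gene table: every symbol that starts with Utp, Rrp, Nop or Nol followed by a digit, apart from Nol3, Nol4 and Nol4l, and 19 further genes named singly. Of these 19, Npm3 and Mrto4 had no probe set that names 1 gene and were not analysed here. That left 51 genes of the 18193 on the array, read by 108 probe sets. The brightest probe set of a gene, by its mean over the arrays, stood for that gene, and all 51 lay above the testing floor, a mean log2 value of 4.81. Fbl, Nop58 and Rrp9, which mark this machinery, were all clearly above that floor.

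The measurements are RNA levels on 4 Affymetrix arrays of T29, a mouse thymic lymphoma line that the design text calls Ikaros-deficient. All cells had been transduced with MigR1-MLER, a retroviral construct carrying an inducible dominant-negative form of Mastermind, the co-activator of Notch. They were cultured for 24 h with ethanol (2 arrays) or with 100 nM 4OHT (2 arrays), the tamoxifen metabolite that binds oestrogen receptor fusion proteins. Cells without the construct were not analysed here, so an effect of 4OHT itself and an effect of the induced protein cannot be told apart. Nothing in the labels tells whether the replicates were separate cultures. The p-values therefore reflect the spread among these 4 samples, which could be technical alone.

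The comparison asks how the nucleolar machinery of this lymphoma line responds when Notch-dependent transcription is blocked. As background, RNA polymerase I makes a long precursor that is cleaved into the mature 18S, 5.8S and 28S RNAs. Small nucleolar RNAs guide its chemical modification: box C/D particles direct 2'-O-methylation and box H/ACA particles direct pseudouridylation. The small subunit processome folds and cuts the 18S part of the precursor, and a separate series of factors assembles the 60S subunit. Growing lymphocytes and lymphomas need this machinery in large amounts, and MYC is known to bind and activate many of its genes, commonly through the E-box sequence CACGTG.

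Of the 51 genes, 26 fell with 4OHT, none rose and 25 did not pass the test (limma, Benjamini-Hochberg adjusted p under 0.05 over 11581 genes). Among all tested genes, 3.57% were lower and 3.9% were higher by the same rule. A change below 0 was measured for 50 of the 51 genes, against 52.3% of all tested genes. The median log2 change of the 51 genes was -0.44, a 1.35-fold lower level, while the median of all tested genes was -0.012. On both 4OHT arrays the level lay below both ethanol arrays for 46 of the 51 genes, which happened for 30.2% of all tested genes. The 26 genes that fell did so by 1.33-fold to 2.14-fold, with adjusted p-values from 0.0164 to 0.0489. These counts describe a set chosen by name with earlier results of these data known, and no test was made of the set as a whole.

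All single-gene calls rested on having all 4 arrays. None of the 26 calls was kept without ethanol replicate 1, ethanol replicate 2, 4OHT replicate 1 or 4OHT replicate 2, with adjusted p-values from 0.0504 to 0.195; over all tested genes, the 865 calls (7.47%) dropped to between 21 and 191 in these fits, which have 1 residual degree of freedom. The median of the 51 genes was between -0.44 and -0.46 whichever array was left out, and 48 to 50 of them were below 0. Set against each gene's own mean, the 51 genes had a median of 0.24 on ethanol replicate 1 and 0.23 on ethanol replicate 2. For 4OHT replicates 1 and 2 it was -0.23 and -0.21. The replicates of a group were thus much closer to each other than to the other group, and the same median over all tested genes was between -0.011 and 0.020 on every array.

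**Figure D1:**
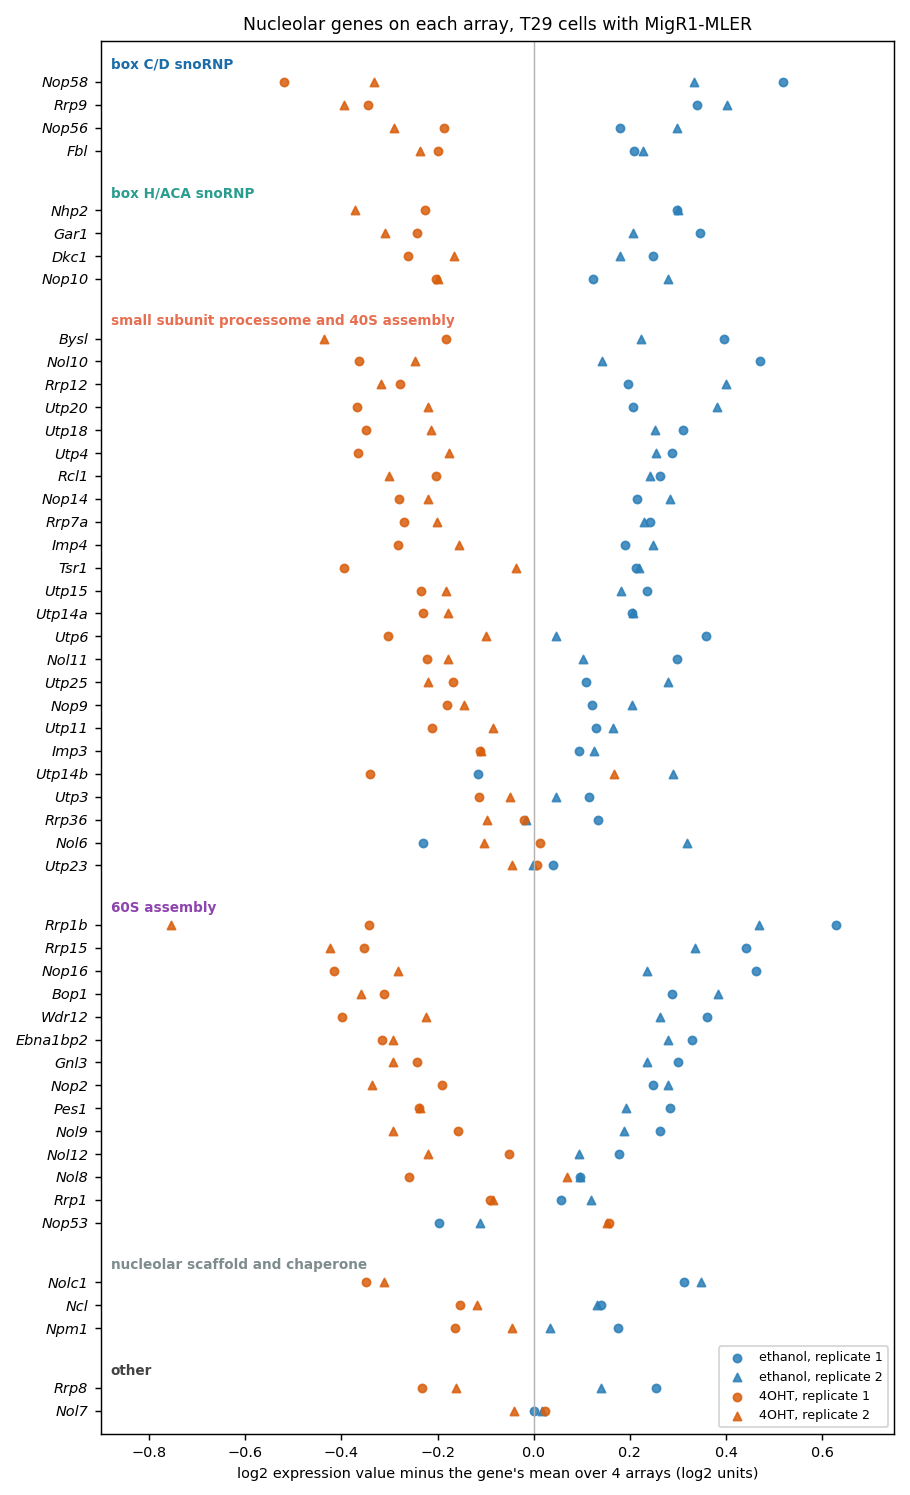
Log2 value of each of the 51 genes on each array minus the gene's mean over the 4 arrays (x axis, log2 units), with genes grouped by role (y axis); colours mark the treatment and symbols the replicate. For 46 genes both 4OHT points lie to the left of both ethanol points, and for Nop53 they lie to the right.

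Promoter windows from RefSeq (build GRCm38.p6, 250 bases before to 50 after the start of the transcript) were held in the sequence table for 42 of the 51 genes. The E-box CACGTG, which reads the same on both strands, was present in a window of 11 of these 42 genes (26.2%). It was present for 11.6% of the 9402 tested genes that have a window. The E-box variant CACGCG, read on either strand, was found for 31.0% of the 42 genes and 19.9% of tested genes. TGGGAA, the core of the motif bound by the Notch partner RBPJ, read on either strand, was found for 26.2% and 26.6%. The 4 genes with the largest falls among those with a CACGTG, and the 2 with the largest falls among those without one, are printed 5′ to 3′ on the gene's own strand, with CACGTG in capitals, to show where the E-box lies in genes that fell.
Utp20: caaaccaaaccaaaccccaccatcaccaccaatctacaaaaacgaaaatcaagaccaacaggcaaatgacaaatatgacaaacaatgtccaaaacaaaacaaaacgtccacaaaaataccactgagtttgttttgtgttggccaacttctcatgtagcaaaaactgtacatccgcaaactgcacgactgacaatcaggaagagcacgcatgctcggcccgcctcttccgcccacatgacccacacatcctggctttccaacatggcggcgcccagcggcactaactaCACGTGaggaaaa
Utp18: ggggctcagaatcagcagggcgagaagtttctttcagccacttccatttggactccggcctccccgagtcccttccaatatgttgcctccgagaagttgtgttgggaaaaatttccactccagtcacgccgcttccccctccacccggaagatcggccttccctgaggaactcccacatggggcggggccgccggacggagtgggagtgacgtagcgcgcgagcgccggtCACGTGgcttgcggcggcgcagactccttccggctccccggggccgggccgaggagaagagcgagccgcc
Utp4: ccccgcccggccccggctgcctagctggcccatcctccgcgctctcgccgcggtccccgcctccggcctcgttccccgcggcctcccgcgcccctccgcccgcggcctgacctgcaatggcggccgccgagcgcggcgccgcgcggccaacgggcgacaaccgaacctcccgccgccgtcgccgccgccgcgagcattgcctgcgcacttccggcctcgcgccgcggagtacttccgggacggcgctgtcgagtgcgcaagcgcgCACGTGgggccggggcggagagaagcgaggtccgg
Nop2: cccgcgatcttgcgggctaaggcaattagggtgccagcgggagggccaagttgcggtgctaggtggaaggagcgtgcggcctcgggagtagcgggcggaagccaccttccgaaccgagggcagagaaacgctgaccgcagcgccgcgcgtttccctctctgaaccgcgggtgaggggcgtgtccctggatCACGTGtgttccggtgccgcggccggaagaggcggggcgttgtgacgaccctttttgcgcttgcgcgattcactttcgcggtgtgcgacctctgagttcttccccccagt
Rrp1b: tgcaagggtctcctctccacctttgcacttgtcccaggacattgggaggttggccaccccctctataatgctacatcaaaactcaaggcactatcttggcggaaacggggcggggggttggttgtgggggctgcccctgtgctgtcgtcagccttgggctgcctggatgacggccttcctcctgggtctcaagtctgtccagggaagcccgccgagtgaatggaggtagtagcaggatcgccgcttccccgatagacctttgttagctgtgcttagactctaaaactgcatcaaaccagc
Nop58: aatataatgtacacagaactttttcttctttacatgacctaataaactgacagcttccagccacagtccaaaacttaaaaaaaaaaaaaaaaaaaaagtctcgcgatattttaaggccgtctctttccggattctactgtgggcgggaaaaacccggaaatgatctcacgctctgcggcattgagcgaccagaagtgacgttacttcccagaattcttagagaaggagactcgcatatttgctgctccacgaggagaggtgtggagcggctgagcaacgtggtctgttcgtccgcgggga

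The Utp20 window is chr10:88826765-88827064 on the minus strand, and its E-box starts at base 38 of the transcript. In Utp18 (chr11:93885717-93886016, minus strand) the E-box starts 20 bases before the transcript. In Utp4 (chr8:106893390-106893689, plus strand) it starts at base 16 of the transcript, and in Nop2 (chr6:125131633-125131932, plus strand) 60 bases before it. The windows of Rrp1b (chr17:32035912-32036211, plus strand, the first of its 2 windows) and Nop58 (chr1:59684756-59685055, plus strand) hold no CACGTG, and these are the genes with the largest falls of the whole set. The other genes with a CACGTG were Pes1, Rrp7a, Imp4, Tsr1, Nol11, Utp25 and Utp14b. The hexamer was held by 6 of the 23 genes with a window that fell (26.1%) and by 5 of the 19 that did not pass (26.3%). The windows were not matched to other genes for base composition. The median log2 change was -0.47 for members with a CACGTG and -0.48 for members without. Myc itself read 11.63 and 11.94 with ethanol and 10.96 and 11.12 with 4OHT (log2 change -0.74 ± 0.13 SE, limma adjusted p = 0.0358).

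The mRNAs of all 4 measured box C/D particle genes fell, with a group median of -0.61. Nop58, a core scaffold protein of the particle, read 11.18 and 11.00 with ethanol and 10.15 and 10.33 with 4OHT. Both 4OHT arrays lay below both ethanol arrays, a 1.80-fold fall (log2 change -0.85 ± 0.11 SE, adjusted p = 0.0217). Rrp9, which belongs to the U3 particle that starts 18S processing, read 9.63 and 9.69 with ethanol and 8.94 and 8.89 with 4OHT. Its replicates were close together and its groups far apart, a 1.67-fold fall (-0.74 ± 0.09 SE, adjusted p = 0.0164). Fbl, fibrillarin, the methyltransferase of the particle, read 12.73 and 12.75 with ethanol and 12.32 and 12.29 with 4OHT (1.35-fold lower, adjusted p = 0.0402). It had the smallest change of the 4. Its groups did not overlap, and 4OHT arrays lay below ethanol arrays in this way for 30.2% of all tested genes. Nop56, the partner of Nop58, fell 1.39-fold (adjusted p = 0.0451).

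Of the 4 genes for box H/ACA particle proteins, 2 fell, and the other 2 had changes below 0 that did not pass. Nhp2, a core RNA-binding protein of the particle, read 12.41 on both ethanol arrays and 11.88 and 11.74 with 4OHT (1.51-fold lower, adjusted p = 0.0287). Gar1, another core protein, fell 1.47-fold (adjusted p = 0.0325). Dkc1, dyskerin, is the pseudouridine synthase and the gene of X-linked dyskeratosis congenita. It read 12.03 and 11.97 with ethanol and 11.53 and 11.62 with 4OHT, just outside the threshold (log2 change -0.43 ± 0.09 SE, adjusted p = 0.0506). Nop10, the smallest protein of the particle, read 12.90 and 13.06 with ethanol and 12.58 on both 4OHT arrays (-0.40 ± 0.095 SE, adjusted p = 0.0659). For all 4 genes both 4OHT arrays lay below both ethanol arrays, which happened for 30.2% of all tested genes.

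Of 24 genes of the small subunit processome and 40S assembly, 10 fell, 14 did not pass, and all 24 had a change below 0 (median -0.41). The 10 were Bysl, Rrp12, Utp20, Utp18, Utp4, Rcl1, Nop14, Rrp7a, Utp15 and Utp14a. Bysl, bystin, a 40S assembly factor, read 10.19 and 10.02 with ethanol and 9.61 and 9.36 with 4OHT. All 4 arrays kept the group order, and the fall was 1.54-fold (-0.62 ± 0.12 SE, adjusted p = 0.0456). Rrp12, needed for export of the pre-40S particle, fell 1.51-fold (adjusted p = 0.0331), and Utp20, a very large scaffold protein of the processome, 1.50-fold (adjusted p = 0.0361). Utp18 and Utp4, WD-repeat proteins of different processome subcomplexes, fell 1.48-fold and 1.46-fold (adjusted p = 0.0305 and 0.0375).

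Several processome genes had small changes or replicates that lay far apart. Utp23 read 9.33 and 9.29 with ethanol and 9.29 and 9.24 with 4OHT, with overlapping groups (log2 change -0.039, 95% confidence interval -0.25 to 0.17, adjusted p = 0.813). That interval does not include the median of the 51 genes. Rrp36 had a change of -0.12 (adjusted p = 0.496) and Utp3 one of -0.16 (adjusted p = 0.306). Nol6 read 7.60 and 8.15 with ethanol and 7.85 and 7.73 with 4OHT, and Utp14b read 7.03 and 7.44 with ethanol and 6.81 and 7.32 with 4OHT. Replicates of these last genes differed by more than the groups did, so their arrays do not resolve a change of the size seen elsewhere. Utp14b is a retrogene copy of Utp14a, whose own probe set fell 1.33-fold (adjusted p = 0.0489). Nol10 had a change of -0.61, as large as that of Bysl, and its ethanol arrays were further apart (7.29 and 6.96; adjusted p = 0.0556).

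**Figure D2:**
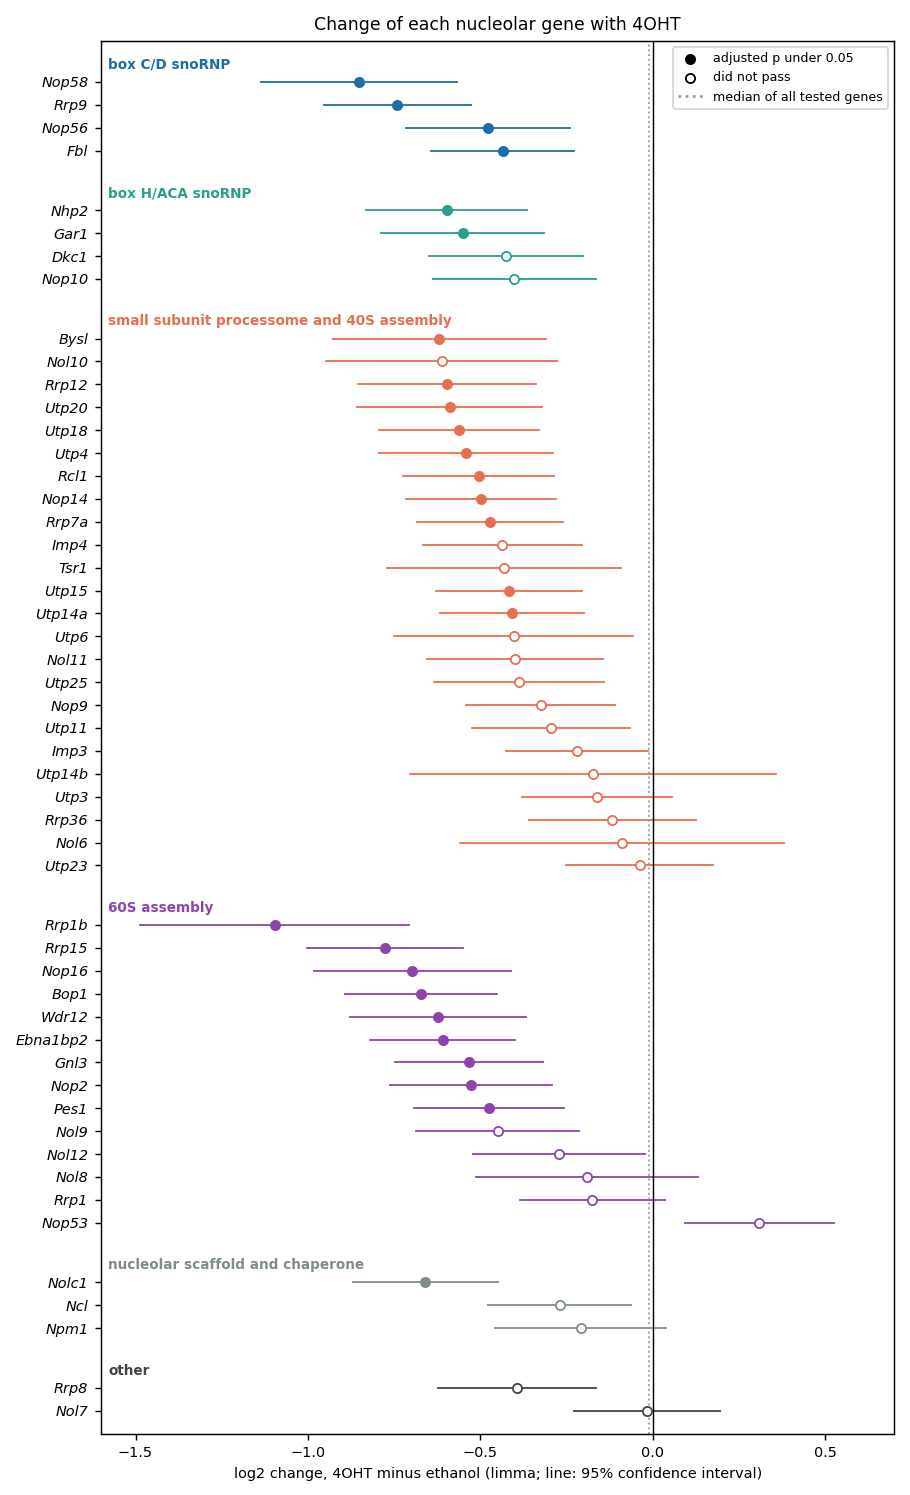
Log2 change with 4OHT of each of the 51 genes by role (points) with limma's 95% confidence interval (lines); filled points passed the test and the dotted line is the median of all tested genes. All 26 filled points lie below 0, from -1.10 for Rrp1b to -0.41 for Utp14a, and Nop53 is the point above 0, at 0.31.

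Of 14 genes of 60S assembly, 9 fell, 5 did not pass, and 13 had a change below 0 (median -0.53). Rrp1b, a nucleolar protein of the Rrp1 family, read 10.12 and 9.96 with ethanol and 9.15 and 8.74 with 4OHT. This was the largest fall of the 51 genes, 2.14-fold (-1.10 ± 0.16 SE, adjusted p = 0.0240), although its 4OHT replicates differed by more than those of most members. Rrp15, a pre-60S factor, read 10.01 and 9.91 with ethanol and 9.22 and 9.15 with 4OHT (1.71-fold lower, adjusted p = 0.0165). Nop16, a nucleolar protein of the pre-60S particle, read 10.03 and 9.80 with ethanol and 9.15 and 9.29 with 4OHT (1.62-fold lower, adjusted p = 0.0305). In both genes the groups lay well apart.

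The 3 genes of the PeBoW complex, which is required for processing the 28S part of the precursor, all fell. Bop1 read 10.71 and 10.81 with ethanol and 10.11 and 10.06 with 4OHT (1.59-fold lower, adjusted p = 0.0205). Wdr12 read 10.15 and 10.06 with ethanol and 9.39 and 9.57 with 4OHT (1.54-fold lower, adjusted p = 0.0305). Pes1, the third subunit, fell 1.39-fold (adjusted p = 0.0361). No array of either group crossed into the other for any of them, while 30.2% of all tested genes had both 4OHT arrays below both ethanol arrays. Ebna1bp2, another 60S assembly factor, read 11.35 and 11.30 with ethanol and 10.70 and 10.73 with 4OHT (1.53-fold lower, adjusted p = 0.0227). Gnl3, nucleostemin, a nucleolar GTPase of proliferating cells, fell 1.45-fold (adjusted p = 0.0301), and Nop2, a 28S RNA methyltransferase, 1.44-fold (adjusted p = 0.0353).

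Nop53, a 60S assembly factor, was the exception in direction. It read 11.13 and 11.22 with ethanol and 11.48 on both 4OHT arrays. Both 4OHT arrays were above both ethanol arrays, which happened for 26.7% of all tested genes, and the change did not pass (0.31 ± 0.09 SE, 95% confidence interval 0.093 to 0.52, adjusted p = 0.0958). Its other probe sets gave 0.21 and, for a dimmer one, -0.062. Rrp1, the relative of Rrp1b, read 11.54 and 11.60 with ethanol and 11.39 and 11.40 with 4OHT, a change of -0.18 that did not pass (adjusted p = 0.262). The confidence intervals of Rrp1 (-0.39 to 0.035) and Rrp1b (-1.49 to -0.71) do not meet; the difference itself was not tested.

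Among the genes for abundant nucleolar scaffold and chaperone proteins, 1 of 3 fell. Nolc1, which shuttles between the nucleolus and Cajal bodies and binds snoRNPs, read 11.63 and 11.66 with ethanol and 10.97 and 11.00 with 4OHT. With replicates this close the fall of 1.58-fold was among the clearest (-0.66 ± 0.08 SE, adjusted p = 0.0191). Ncl, nucleolin, read 13.45 and 13.44 with ethanol and 13.16 and 13.19 with 4OHT (-0.27 ± 0.08 SE, adjusted p = 0.116). Npm1, nucleophosmin, read 13.54 and 13.40 with ethanol and 13.20 and 13.32 with 4OHT (-0.21 ± 0.10 SE, adjusted p = 0.257). Neither passed. Both had 4OHT arrays below both ethanol arrays, which happened for 30.2% of all tested genes. The remaining genes were Rrp8, a nucleolar methyltransferase that acts on 28S RNA, which read 9.47 and 9.36 with ethanol and 8.99 and 9.06 with 4OHT (-0.39, adjusted p = 0.0640), and Nol7, which read 11.56 and 11.58 with ethanol and 11.58 and 11.52 with 4OHT (-0.017, adjusted p = 0.923).

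The probe sets of a gene mostly had changes of the same sign. Of the 108 probe sets, 99 were above the floor and 95 of these had a change below 0. Of 30 genes read by several such probe sets, all of them were below 0 for 27, and Nol7, Nop53 and Utp23 had some in each direction. When all 20967 probe sets above the floor were tested together, 18 probe sets of these genes were lower, where 1.59% of all probe sets were lower, and none was higher, where 2.43% were. Only 12 of these 18 were the brightest probe set of their gene, so that 14 of the 26 calls made with 1 probe set per gene did not pass here, Fbl, Nop56, Bysl and Gar1 among them; the other 6 were further probe sets of Ncl, Nhp2, Nolc1 and Rrp1b. Of 13 genes that fell and had several probe sets, 3 had a second one that was lower by this test. The size of a change differed between probe sets of the same gene. The 5 probe sets of Ncl gave changes from -0.27 for the brightest to -0.77, and the last of these was lower in the test of all probe sets (limma adjusted p = 0.0286). The 3 of Rrp1b were at -1.10, -0.83 and -0.77. For 14 of the 30 genes the brightest probe set had a smaller change than the median of the others. The chosen probe set carried the suffix _x_at or _s_at, which marks possible cross-hybridisation, for 8 genes, Fbl, Nop56, Nhp2, Gar1 and Nop53 among them.

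**Figure D3:**
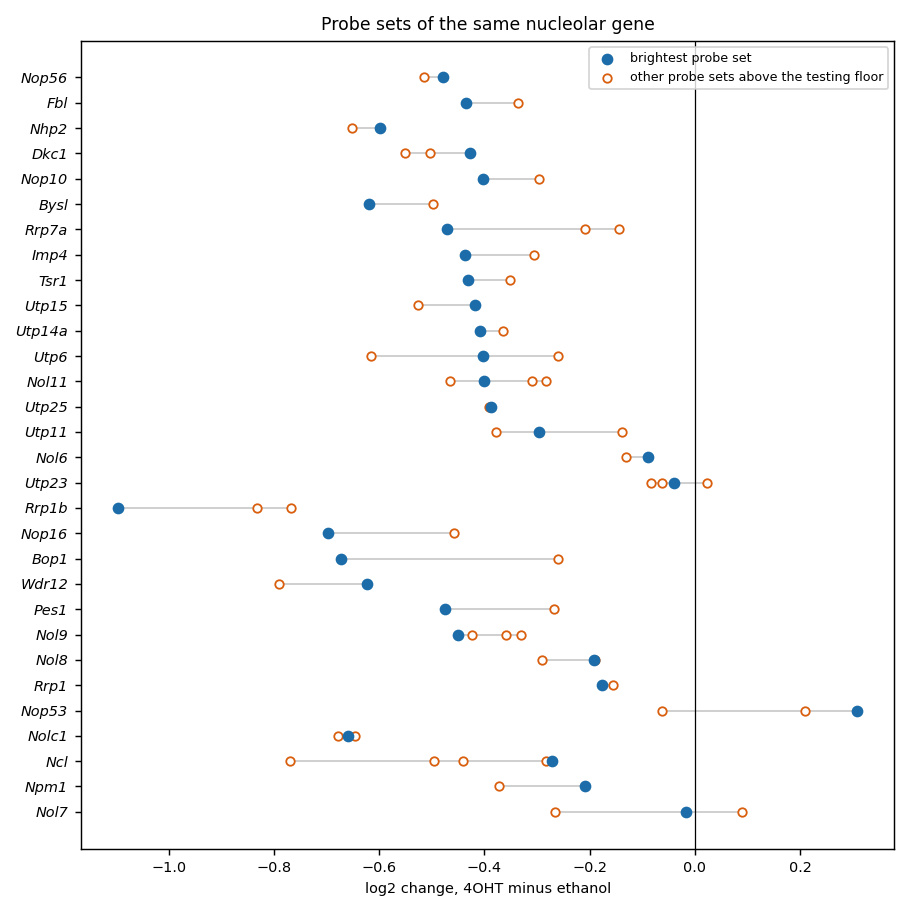
Log2 change with 4OHT (x axis) of every probe set above the testing floor for the 30 genes read by several of them; filled points are the brightest probe set of the gene and open points the others. All points lie below 0 for 27 genes, and those of Nol7, Nop53 and Utp23 lie on both sides.

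Other ribosome biogenesis genes, from lists drawn from general knowledge, were lower in 37 of 125 tested genes and higher in none. Among all tested genes, 3.57% were lower and 3.9% were higher by the same rule. The lists were chosen with earlier results of these data known. In the 35 other small subunit and 40S factors, 13 fell (median -0.40), led by Wdr46 (1.69-fold), the RNA acetyltransferase Nat10 (1.60-fold) and Wdr75 (1.56-fold). In the 42 other 60S factors, 14 fell (median -0.38), led by Tma16 (1.68-fold), Noc2l (1.65-fold) and the helicase Ddx54 (1.55-fold). Among 9 factors that assemble snoRNPs, 5 fell (median -0.46). Naf1, which loads box H/ACA particles, read 10.34 and 10.25 with ethanol and 9.34 and 9.50 with 4OHT (1.84-fold lower, adjusted p = 0.0151). Znhit6 and the ATPase Ruvbl2, which act on box C/D particles, each fell 1.47-fold. In the RNA exosome, which trims precursor ends, 2 of 13 genes fell, Dis3 (1.44-fold) and Exosc1 (1.41-fold). In the RNA polymerase I machinery 3 of 15 fell, Polr1b (1.79-fold), Cd3eap (1.52-fold) and Polr1e (1.42-fold).

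Genes for the RNA hosts of the snoRNAs and for the protein parts of the ribosome were read from the same fit. Of 11 host genes of small nucleolar RNAs, none passed in limma, and the median was -0.037. Before adjustment (p under 0.05), 3 of the 11 were lower and 0 higher, against 13.2% lower and 12.3% higher among all tested genes. The 3 were Snhg5 (-0.36), Snhg17 (-0.35) and Snhg4 (-0.31). Snhg3 had the lowest value, with overlapping groups (-0.56 ± 0.29 SE). In all, 6 of the 11 host genes were below 0 and 5 above. Gas5, the host of many box C/D RNAs, read 12.53 and 12.60 with ethanol and 12.63 and 12.57 with 4OHT, with overlapping groups. Of 45 cytosolic ribosomal protein genes, paralogues included, none passed in limma, and 2 of the 45 were lower and 0 higher before adjustment, a share below the 13.2% and 12.3% of all tested genes. Their median was 0.0007, with 22 of the 45 below 0. Most of them lay near the top of the scale: 34 had a mean log2 value from 13.56 to 14.35, while the highest value of any probe set on any array was 14.59. The changes of these 34 ran from -0.089 to 0.079. The 11 with means of 13 or lower, a level chosen after the values were seen, ran from -0.42 to 0.15 with a median of -0.11, and 8 of them were below 0. They include the paralogues Rpl7l1, Rps27l and Rpl22l1, and probe sets with wide errors such as Rpl12 (-0.29 ± 0.33 SE) and Rps25 (-0.33 ± 0.20 SE). Rpl14, the lowest of the 11, had close replicates, 9.21 and 9.09 with ethanol and 8.68 and 8.78 with 4OHT (-0.42 ± 0.09 SE, limma adjusted p = 0.0604). Rps27 (-0.067), Rps6 (-0.025) and Rpl39 (0.064) also had small errors. Whether the 11 stand for the 34 was not tested. Whether the 34 brightest still follow the amount of RNA at this level was not tested, so the median near 0 does not show that these RNAs were unchanged. Of 76 mitochondrial ribosomal protein genes, 7 fell (median -0.22), where 3.57% of all tested genes were lower. Mrps6 (1.67-fold), Mrpl12 (1.48-fold) and Mrpl15 (1.42-fold) had the largest falls of these 7. A change below 0 was measured for 66 of the 76, against 52.3% of all tested genes. Whether these lists differ from the nucleolar genes was not tested.

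**Figure D4:**
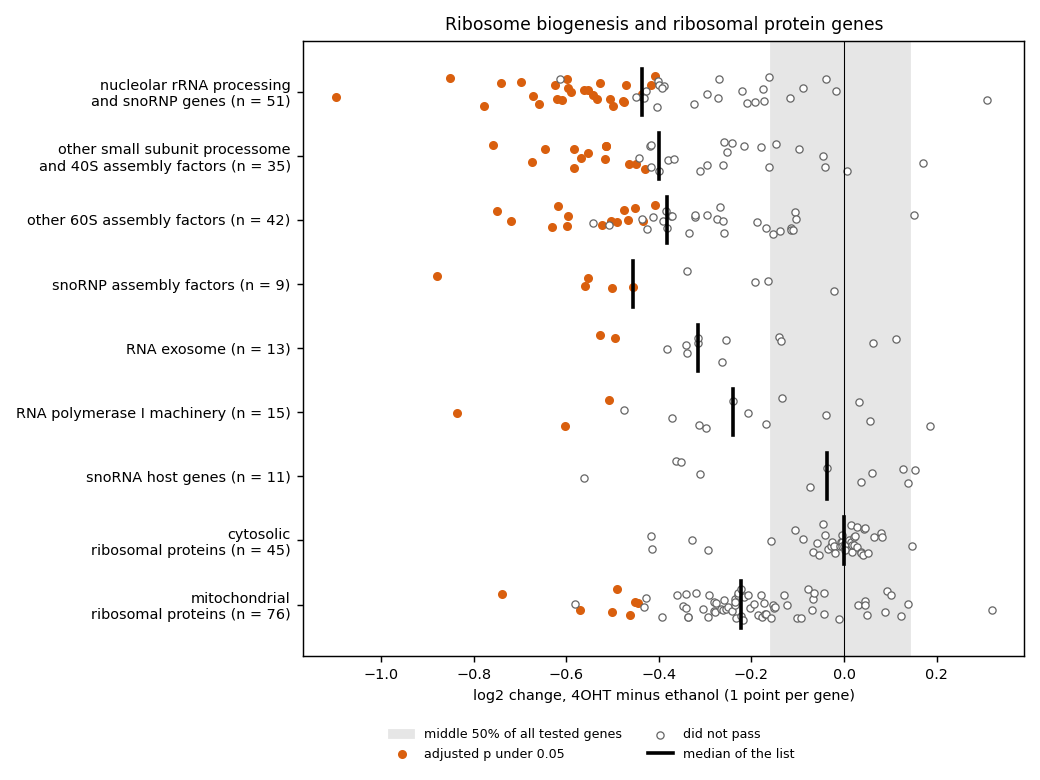
Log2 change with 4OHT (x axis) of each tested gene in 9 gene lists (y axis, with the number of genes); filled points passed the test, black bars are list medians and the grey band is the middle 50% of all tested genes. The list medians run from -0.46 for the snoRNP assembly factors and -0.44 for the nucleolar genes to 0.0007 for the cytosolic ribosomal proteins, most of which lie near the top of the scale.

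Neighbouring genes were used to see how far a fall extended along the chromosome. For 18 of the 42 genes with a window, a gene on the opposite strand starts within 500 bases upstream, so that the pair shares a promoter region. Of these neighbours, 14 were tested. Their partners among the nucleolar genes had a median change of -0.55, with 10 of 14 lower, where 3.57% of all tested genes were lower. None of the 14 neighbours passed in limma (1 at an unadjusted p under 0.05). Among all tested genes 7.47% passed in either direction, so 0 of 14 is near that share. A change below 0 was measured for 5 of the 14, against 52.3% of all tested genes, with a range from -0.25 to 0.29 and a median of 0.048. Gnl3, for example, starts 7 bases from Pbrm1, a chromatin remodeller gene with a change of 0.29 (adjusted p = 0.116). Rrp8 starts 6 bases from Ilk, a kinase gene with a change of 0.041 (adjusted p = 0.809). The difference between partners was not tested.

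Array quality was read from replicate agreement and control probe sets. Pearson's r over tested genes was 0.995 within the ethanol pair, 0.994 within the 4OHT pair and 0.983 to 0.987 between groups. The 18S RNA control probe sets differed between the groups in their 3′ minus 5′ difference, which was 0.051 and 0.32 for ethanol but 0.90 and 0.82 for 4OHT. That of Actb did not, at 0.40 to 0.49 on all arrays. Ethanol replicate 1 stood apart in its 18S 5′ level, at 8.02 against 6.35 to 6.78. Its 18S middle and 3′ levels were also the highest, at 7.80 against 6.66 to 7.27 and 8.07 against 7.11 to 7.57. Transferrin receptor was highest on that array at the 5′ (8.27 against 6.99 to 7.33), middle (7.92 against 6.73 to 6.97) and 3′ probe sets (9.60 against 8.78 to 8.96). The 3′ minus 5′ difference of pyruvate carboxylase was 0.88 (ethanol) and 0.93 (4OHT) for replicate 1, and 1.29 and 1.49 for replicate 2. For transferrin receptor it was 1.33 and 1.97 with ethanol and 1.45 and 1.73 with 4OHT, and for Gapdh it was -0.068 to 0.030 on all arrays. The part of these differences in the falls was not tested; without ethanol replicate 1 the median of the 51 genes was -0.45. Of 8 T-cell markers with a probe set, all were above the floor; Cd3g and Ptcra were lower with 4OHT and Cd247 and Cd8a higher (limma adjusted p from 0.0022 to 0.0356). Of the markers of other cell types, 1 of 4 for B cells (Pax5), 2 of 5 for myeloid cells (Csf1r and Cd14), 1 of 1 for erythroid cells (Klf1) and 2 of 5 for stromal, epithelial and endothelial cells (Epcam and Pdgfrb) were above it, and none of these passed. Pdgfrb was far above the floor, at 8.65 on both ethanol arrays and 8.14 and 8.57 with 4OHT. Cd79a, Cd79b, Ms4a1, Lyz2, Itgam, Mpo, Col1a1, Col1a2 and Cdh5 had means below the floor. Among the myeloid markers, Itgam read 4.10 and 3.96 with ethanol and 4.83 and 4.79 with 4OHT. Cd14 moved the other way, from 6.37 and 6.34 to 6.02 and 5.97. The summed log2 level of the 4 B-cell markers was 16.62 and 17.43 with ethanol and 16.86 on both 4OHT arrays. That of the 5 myeloid markers was 24.86 and 24.87 with ethanol and 25.05 and 25.19 with 4OHT, and that of the 5 stromal, epithelial and endothelial markers was 26.02 and 25.75 with ethanol and 24.70 and 25.48 with 4OHT. Klf1 read 5.85 and 6.09 with ethanol and 5.70 and 5.79 with 4OHT. The groups did not overlap for the myeloid sum, the stromal, epithelial and endothelial sum and Klf1, and overlapped for the B-cell sum. Among all tested genes the groups lay apart for 30.2% (lower with 4OHT) and 26.7% (higher). The part of these markers in the falls was not tested. In bulk RNA, fewer cells of a type and less RNA per cell cannot be told apart, and since the arrays were equalised to the same distribution, a change in total RNA per cell would not be seen.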

How the data were processed

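The deposited table gives a log2 value for every probe set on every array. The submitters' processing notes name RMA, without a version, as the authors' method. RMA corrects background, equalises the arrays' distributions and summarises probes. That the scale is log2 was read from the values, which ran from 2.25 to 14.6. No detection call or depth comes with RMA, so the number of arrays limits the precision.

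Probe sets were named from the platform annotation, where 34945 named exactly 1 gene. Each gene took the probe set with the highest mean, and means below the 40th percentile (log2 4.81) were left out, which left 11581. 4OHT was compared with ethanol in limma 3.58.1 (R 4.3.3; lmFit and eBayes, no trend, no block), with Benjamini-Hochberg adjustment over all tested genes and a call at 0.05. The fit was tested on simulated data with changes larger than those of every member but Rrp1b. That test does not cover changes of the size measured for the other members. No set test was made. Errors are limma's standard errors (SE).

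The members and lists were chosen with earlier results of these data known. Genes given in full are Nop58, Rrp9 and Fbl, the 10 called members with the largest changes, the extremes of each role group, and members with probe sets in both directions; in other lists, up to 3 called genes with the largest changes. Other values fill in the role groups. Context genes (Myc, the named snoRNA host and cytosolic ribosomal protein genes, Pbrm1, Ilk and the divergent neighbours) were added after values were seen. Alternatives covered the filter, normalization, probe set choice, intensity trend, replicate block and each array left out.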

Additional observations from a re-analysis of the deposited data

How the results depend on the processing

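The count of 26 lower members was between 19 and 36 with no filter, a 60th percentile filter, quantile normalization, median centring, the replicate block, the mean of probe sets, no _x_at or _s_at probe sets, and an intensity trend, plain or robust. The share of all tested genes that were lower also moved, from 1.89% with no filter to 8.9% with the replicate block, beside 3.57% in the main fit. When all probe sets above the floor were tested together, an alternative chosen after seeing the data, 12 members were lower at their brightest probe set (1.91% of all tested genes), so that 14 of the 26 calls were lost, and 19 genes of the other lists were lower. With the mean of probe sets, 17 of the 26 kept their call and the members' median was -0.39. With either intensity trend 1 member was called higher, Nop53. Leaving out 1 array gave 0 to 0 lower members, 48 to 50 below 0 and medians from -0.46 to -0.44, and 0 to 2 lower genes in the other biogenesis lists. Directions turned for 3 genes when 1 array was left out: Utp14b (-0.43 to 0.080; above 0 without 4OHT replicate 1 or ethanol replicate 2), Nol7 (-0.049 to 0.016; above 0 without 4OHT replicate 2) and Nol6 (-0.36 to 0.18; above 0 without ethanol replicate 2). Utp23 turned without _x_at and _s_at probe sets (0.023). None of these was called in any of the fits named. With the replicate number as a block, 36 members and 64 genes of the other lists were lower, with 26 of the 26 main calls kept. Among all tested genes 1031 (8.9%) were lower in that fit, and 2135 were called in all. Same-numbered arrays deviated together over all tested genes (r = 0.343) and less over the members (r = 0.0708). No label ties the 2 numbers to a shared culture, so whether same-numbered arrays form pairs cannot be told. The main fit did not use the number.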
